A study of Arabidopsis halleri subsp. gemmifera and Arabidopsis thaliana with 4 samples.

Results

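The plasma membrane proton pumps of the AHA family were followed in roots of 2 plant species by RNA sequencing. The members were 10 loci given by name and identifier, AHA1 to AHA5 and AHA7 to AHA11, and all 10 were found among the 33602 loci of the deposited tables. AHA6, a pollen pump outside that list, had 0 reads in all 4 libraries. One species was Arabidopsis halleri ssp. gemmifera, known for hyperaccumulating zinc and cadmium in its leaves, and the other was A. thaliana, which does not. There were 2 libraries per species, described as biological replicates, and the labels name no accession, plant age or number of plants. P-values therefore measure the spread between these libraries only. Both species grew hydroponically as untreated controls in 1 nutrient solution. Its nitrate came from KNO3 at 3 mM and from calcium nitrate at 2 mM. It also held 0.5 mM NH4H2PO4, 10 µM NaFeEDTA and 0.8 µM ZnSO4. Copper sulfate was at 0.3 µM, manganese chloride at 9.1 µM and magnesium sulfate at 1 mM. The libraries held 15497893 to 22762183 reads assigned to transcript models, and 1 read was worth 0.0452 to 0.0634 CPM, the read count scaled to a common library size after adjustment by the TMM method. Reads of A. halleri were counted on A. thaliana models, so a difference in level and a difference in how many reads could be placed cannot be told apart. In these bulk samples fewer cells of a type and less RNA per cell cannot be told apart.

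AHA pumps are P-type ATPases that use ATP to move protons out of the cell. The gradient they build drives uptake of nitrate, phosphate, potassium and other nutrients, supports cell expansion and acidifies the soil solution, which dissolves iron. The C-terminal end of the pump inhibits its own activity until a threonine next to the last residue is phosphorylated and a 14-3-3 protein binds there.

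The coding ends of the members are shown because this regulated end is shared by genes whose levels differed widely. Each line gives the last 20 codons and the stop codon of the first transcript model, read 5′ to 3′ on the coding strand from TAIR10.1, with the last 3 codons before the stop in capitals.
AHA1 (chr2:8227206-8227268, plus strand): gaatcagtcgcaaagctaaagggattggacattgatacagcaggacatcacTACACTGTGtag
AHA2 (chr4:14770820-14770882, minus strand): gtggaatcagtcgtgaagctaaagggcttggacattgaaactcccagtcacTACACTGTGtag
AHA3 (chr5:23231208-23231270, minus strand): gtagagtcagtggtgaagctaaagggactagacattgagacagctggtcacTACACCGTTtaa
AHA4 (chr3:17697739-17697801, plus strand): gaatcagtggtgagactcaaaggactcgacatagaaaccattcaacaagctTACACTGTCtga
AHA5 (chr2:10419668-10419730, plus strand): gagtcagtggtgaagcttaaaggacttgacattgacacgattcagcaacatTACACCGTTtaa
AHA7 (chr3:22303447-22303509, plus strand): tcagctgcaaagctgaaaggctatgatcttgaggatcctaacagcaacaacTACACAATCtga
AHA8 (chr3:14728000-14728062, plus strand): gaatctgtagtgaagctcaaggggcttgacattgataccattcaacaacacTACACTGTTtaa
AHA9 (chr1:30316227-30316289, minus strand): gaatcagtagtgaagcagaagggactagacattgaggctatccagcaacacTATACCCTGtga
AHA10 (chr1:5908836-5908898, plus strand): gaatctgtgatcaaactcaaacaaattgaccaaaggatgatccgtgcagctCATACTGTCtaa
AHA11 (chr5:25164895-25164957, plus strand): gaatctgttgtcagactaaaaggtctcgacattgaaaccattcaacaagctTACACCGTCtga
The second-last codon was ACN, the codons of threonine, in 10 of 10 members. The last 3 codons were TAC or TAT, then ACN, then GTN in 7 of 10, read on the coding strand only, and AHA7, AHA9 and AHA10 differed from that pattern in 1 codon each. Among 27382 coding sequences of the annotation, 1 per gene, 12 ended in the same pattern (0.0438%).

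The pumps have to be read against a background in which most root genes differed by species. Of 20899 loci that passed the filter on low counts, 72.5% were called, meaning that the Benjamini-Hochberg adjusted p of the quasi-likelihood test in edgeR was under 0.05. Among the 10 pumps 4 were called higher in A. halleri (AHA1, AHA3, AHA7 and AHA11; background 35.7%), 4 lower (AHA2, AHA4, AHA5 and AHA8; background 36.8%), 1 was not called (AHA10) and 1 did not pass the filter (AHA9). Both shares were near the background, so the number of calls is no property of the family. AHA4, AHA5 and AHA8 passed the filter only through A. thaliana, where they were higher, so that a difference was built into their being tested. Called and at least 2-fold apart were 3 pumps (AHA4, AHA5 and AHA8; background 40.3%). The species did not overlap in 8 of 10 pumps (background 87.2%), with A. halleri above in 4 (43.4%) and below in 4 (43.8%). The median log2 difference of the 9 tested pumps was -0.14 and that of all tested loci -0.01.

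**Figure D1:**
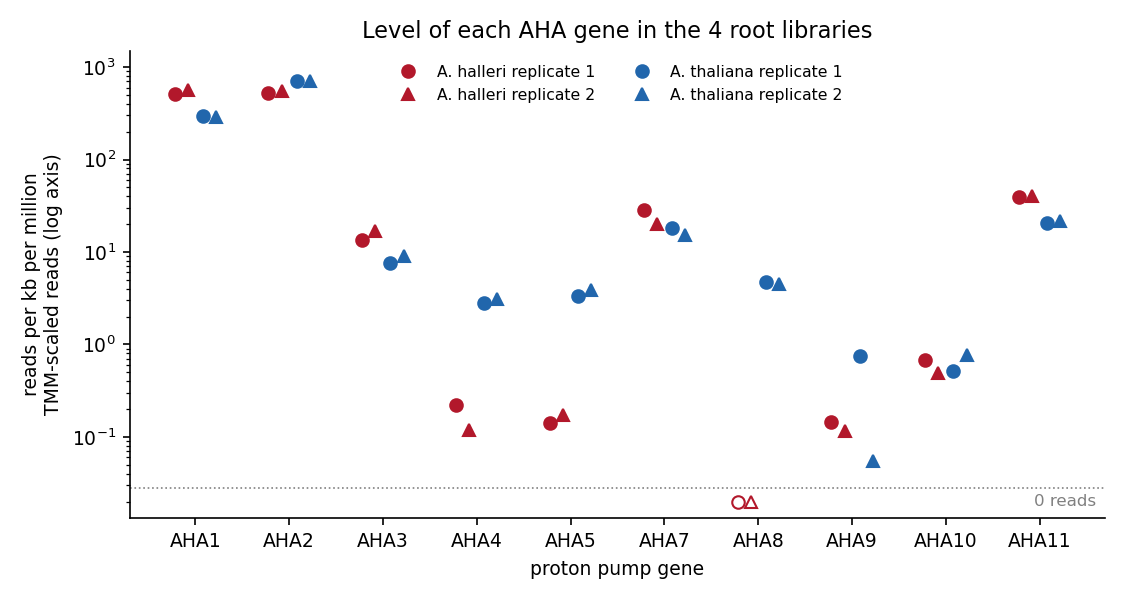
CPM per kb of the longest listed model, on a log axis, for the 10 AHA genes in each A. halleri (red) and A. thaliana (blue) library; open symbols at the bottom mark 0 reads. AHA1 and AHA2 lie far above the other genes in every library, and AHA4, AHA5 and AHA8 are lower in A. halleri by the widest margins.

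Of the main root pumps, AHA1 was higher in A. halleri and AHA2 lower. Both act throughout the plant, and AHA2 is the main pump of root proton extrusion, including that under iron deficiency. AHA1 (AT2G18960, TAIR10.1 chromosome 2, 8221514 to 8227622) had 29403 and 30377 reads in A. halleri against 17722 and 21873 for A. thaliana, or 1734 and 1927 CPM against 1006 and 988. Both A. halleri libraries lay above both of A. thaliana. The means were 1831 ± 137 and 997 ± 12.8 CPM (SD, n = 2), so that AHA1 was 1.84-fold higher in A. halleri (log2 0.88, SE 0.10, edgeR adjusted p = 0.000153). Within replicate numbers the log2 difference was 0.79 and 0.96. AHA2 (AT4G30190, chromosome 4, 14770395 to 14776247) had 29603 and 28838 reads in A. halleri against 41349 and 51887 for A. thaliana, or 1745 and 1829.8 CPM against 2347 and 2344. Here both A. thaliana libraries were above. The means were 1788 ± 59.6 and 2346 ± 2.58 CPM (SD, n = 2), 1.31-fold lower in A. halleri (log2 -0.39, SE 0.09, edgeR adjusted p = 0.00692), and within replicate numbers the log2 difference was -0.43 and -0.36.

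The pair made up most of the family's transcripts, and its balance was what differed. Scaled by length, the levels of AHA1 and AHA2 were 505 and 528 in A. halleri replicate 1 and 562 and 554 in replicate 2, in CPM per kb. In A. thaliana the same levels were 293 and 710.5 in replicate 1 and 288 and 709 in replicate 2. The 2 genes were thus level with each other in A. halleri, with a ratio of AHA2 to AHA1 of 1.05 and 0.986, while in A. thaliana AHA2 was ahead, with ratios of 2.42 and 2.46. No library of 1 species reached the ratio of the other, and an exact two-sided permutation test of the log2 ratio, 2 libraries against 2, gave p = 0.333, the smallest it can give. By length-scaled level AHA2 ranked 86th and AHA1 379th of all loci in A. thaliana, and 138th and 143rd in A. halleri.

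The AHA transcript pool as a whole differed less than its make-up. Summed over the 10 genes, the length-scaled level was 1116 and 1194 in A. halleri against 1062 and 1055 for A. thaliana, a ratio of means of 1.09. No test was made on this sum. AHA1 and AHA2 together held 92.6% and 93.4% of it in A. halleri and 94.5% in both A. thaliana libraries. With the reads of AHA1 and AHA2 added up as 1 locus, an alternative chosen after seeing the data, the difference was log2 0.11 (SE 0.10, edgeR adjusted p = 0.346) and was not called.

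**Figure D2:**
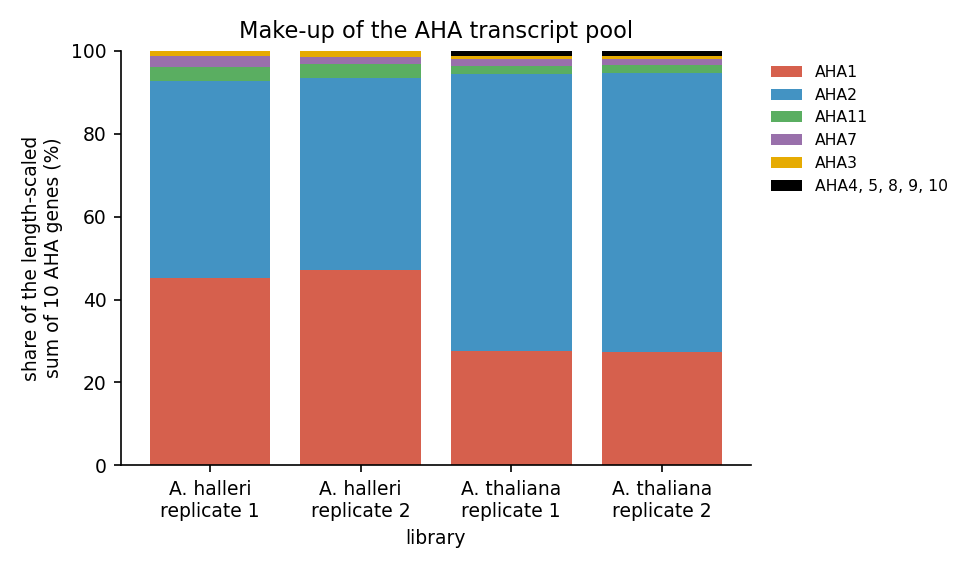
Share of each AHA gene in the length-scaled sum of the 10 genes, in percent, for each library as 1 stacked bar. AHA1 takes 45.3% and 47.0% in the A. halleri libraries and 27.6% and 27.3% in those of A. thaliana, and AHA2 takes 47.3% and 46.4% against 66.9% and 67.2%.

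AHA1 and AHA2 are the closest relatives of the family, and 89.2% of aligned coding bases are the same. The 60-base stretches of their A. thaliana coding sequences with the fewest and the most differences, each inside 1 exon, follow with differing bases in capitals. They do not show how A. halleri reads differ from either gene.
AHA1, fewest differences (chr2:8223178-8223237, plus strand): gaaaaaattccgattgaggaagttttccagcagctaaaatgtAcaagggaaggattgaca
AHA2, fewest differences (chr4:14774806-14774865, minus strand): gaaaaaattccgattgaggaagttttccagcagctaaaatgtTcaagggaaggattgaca
AHA1, most differences (chr2:8226630-8226689, plus strand): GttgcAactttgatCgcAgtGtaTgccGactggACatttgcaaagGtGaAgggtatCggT
AHA2, most differences (chr4:14771310-14771369, minus strand): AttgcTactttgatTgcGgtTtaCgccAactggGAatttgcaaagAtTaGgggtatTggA
The first pair differs at 1 of 60 bases and the second at 14 of 60. Of the 3499 windows of 50 bases in the AHA1 transcript, 16 also occur in AHA2, and none of the other 8 members shares such a window with a member. All 59780 A. halleri reads and all 39595 A. thaliana reads of AHA1, which has 1 model, were listed as unique. The sources used here do not define that term. AHA2 has 2 models, and 17.4% of its A. halleri reads and 16.05% of its A. thaliana reads were listed as unique. AHA1 was 833.5 CPM higher in A. halleri and AHA2 fell by 558 CPM, and whether A. halleri reads of 1 gene were counted on the other was not tested.

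Among the next most abundant pumps, AHA11, AHA3 and AHA7 were all higher in A. halleri, by less than 2-fold. AHA11 (AT5G62670, chromosome 5, 25159208 to 25165209), a broadly expressed pump, stood at 128 and 133 CPM in A. halleri against 67.3 and 70.1 for A. thaliana. The species were well separated, at 1.90-fold (log2 0.93, SE 0.09, edgeR adjusted p = 5.771e-05). Its end overlaps by 73 bases that of GTR2, a glucosinolate transporter on the other strand that took 2481 and 3003 A. halleri reads and 2695 and 3055 A. thaliana reads, and the strand setting of the counting is not given in the sources used here.

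AHA3 (AT5G57350, chromosome 5, 23230874 to 23236682), known from the companion cells of the phloem, stood at 43.0 and 55.01 CPM in A. halleri against 24.8 and 28.9 for A. thaliana. Both A. halleri libraries were above, at 1.83-fold (log2 0.87, SE 0.14, edgeR adjusted p = 0.00107). With unique reads the call was lost (log2 0.49, adjusted p = 0.261), but AHA3 has 2 models, and only 41 of 1596 A. halleri reads and 36 of 1076 A. thaliana reads were listed as unique. Of 5 phloem markers 1 was higher (35.7% of all tested loci were), 2 lower (36.8%) and 2 not called. Their summed level was 187 to 261 CPM in A. halleri and 250.1 to 269.8 in A. thaliana. SUC2, the companion cell sucrose importer, was 1.82-fold higher, and the sieve element and phloem protein genes CALS7 and PP2-A1 were 1.91-fold and 2.44-fold lower. Their part in the result was not tested.

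AHA7 (AT3G60330, chromosome 3, 22298373 to 22303718), known from root hairs, stood at 93.0 and 64.7 CPM in A. halleri against 59.2 and 49.2 for A. thaliana. The lower A. halleri library lay close above the higher A. thaliana library. The difference was 1.45-fold (log2 0.54, SE 0.18, edgeR adjusted p = 0.0257), and without A. halleri replicate 1 it was log2 0.27 and no longer called. AHA7 overlaps by 134 bases AT3G00950 on the same strand, a locus without counts here. It also overlaps by 153 bases AT3G60328 on the other strand, which had 0 reads in every library. Of 6 root hair markers 5 were higher in A. halleri (35.7% of all tested loci were) and 1, RHD6, was not called. Their summed level was 234 to 286 CPM in A. halleri against 78.3 to 93.4 for A. thaliana. PRP3, a root hair wall protein, was 4.55-fold and EXPA18, an expansin, 3.77-fold higher. A. halleri replicate 1, the library with more AHA7, also had the higher sum, and its part in the result was not tested.

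**Figure D3:**
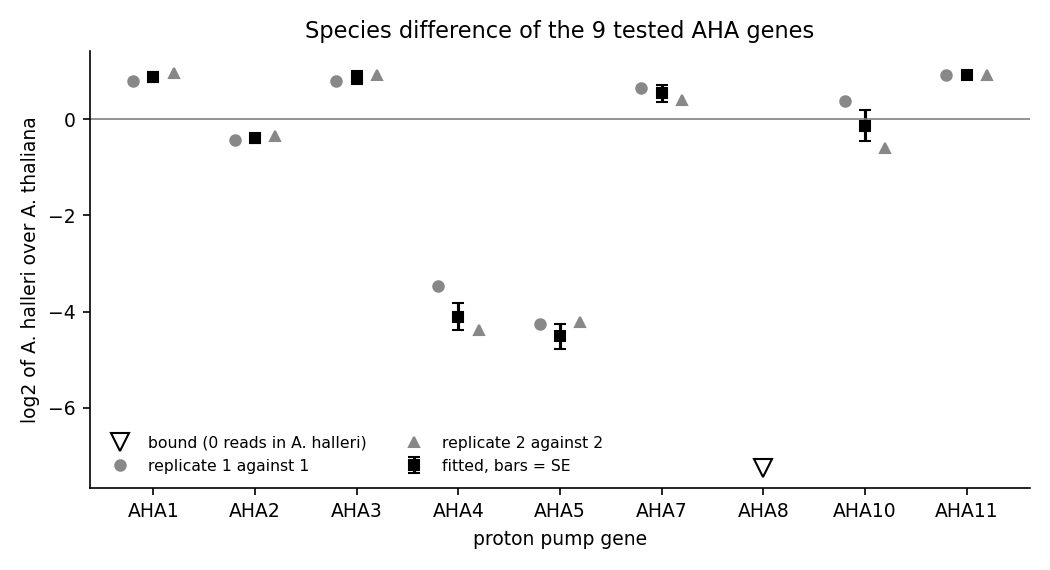
Log2 of A. halleri over A. thaliana for the 9 tested AHA genes: squares are fitted values with their SE, grey symbols the differences within a replicate number, and the open triangle the bound for AHA8, which had 0 reads in A. halleri. AHA1, AHA3, AHA7 and AHA11 lie above 0 and AHA2, AHA4 and AHA5 below in both replicate numbers, and AHA10 changes side.

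AHA3 and AHA7 also differed in which transcript model took the reads. Model 2 of AHA3 held 4.12% and 3.46% of the gene's reads in A. halleri, compared with 41.4% and 48.0% for A. thaliana. For AHA7 the less used model was model 1, with 3.49% and 3.24% in A. halleri, compared with 20.3% and 25.4% for A. thaliana. The species did not overlap in either gene, and the exact two-sided permutation p was 0.333 for both, the smallest that 2 libraries against 2 can give. How often the model shares of other loci differ this way between the species was not computed, so these shares have no background to be read against. In the TAIR10.1 annotation both models of each gene have the same coding sequence. Those of AHA7 start 205 bases apart and have 21 and 22 exons, and the deposited lengths of both equal the annotated ones. For AHA3 the deposited length of model 1, 3226 bases, is not the annotated 3337, so the bases that set its models apart are not located here. Few reads of AHA7 were listed as unique (98 of 2597 in A. halleri, 68 of 2132 in A. thaliana), and how the others were divided between the models is not given in the sources used here. Model 2 of AHA2 held 0.145% to 0.236% of its reads in the 4 libraries. AHA9 also has 2 models but few reads. Its model 2 held 25% and 16.7% of 8 and 6 reads in A. halleri. In A. thaliana it held 58.1% and 50% of 43 and 4 reads.

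**Figure D4:**
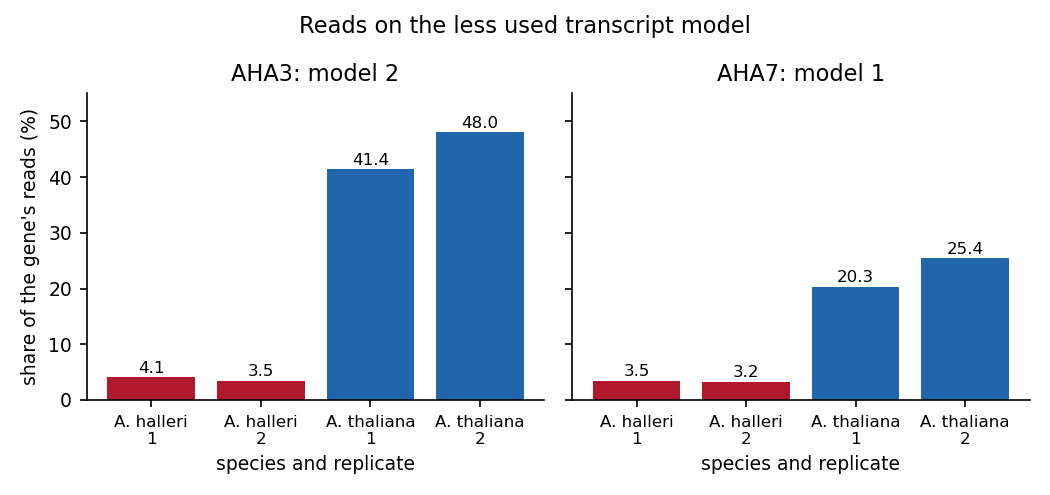
Percent of the reads of AHA3 on its model 2 (left) and of AHA7 on its model 1 (right) in each library, A. halleri in red and A. thaliana in blue. The bars of A. thaliana reach 41.4% and 48.0% for AHA3 and 20.3% and 25.4% for AHA7, and all bars of A. halleri stay under 5%.

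AHA4 and AHA5 were pumps of low level in A. thaliana that were barely detected in A. halleri. AHA4 (AT3G47950, chromosome 3, 17692666 to 17697999), known from the root endodermis and from salt tolerance, had 12 and 6 reads in A. halleri against 158 and 223 for A. thaliana. That is 0.544 ± 0.231 against 9.52 ± 0.78 CPM (SD, n = 2), 17.5-fold lower (log2 -4.10, SE 0.29, edgeR adjusted p = 1.541e-05). AHA5 (AT2G24520, chromosome 2, 10414963 to 10420029) had 7 and 8 reads against 175 and 250, which is 0.46 ± 0.0671 against 10.6 ± 0.96 CPM (SD, n = 2) and 23.1-fold lower (log2 -4.51, SE 0.26, edgeR adjusted p = 5.827e-06). In both genes the species are far apart, but the A. halleri libraries hold so few reads that the fold is loose. On the scale of log2(RPKM + 1) in limma the difference was -1.72 for AHA4 and -1.96 for AHA5, still called.

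The closest relative of AHA4 is AHA11, with 87.5% of aligned coding bases in common, and all reads of both were listed as unique. AHA4 fell by 8.98 CPM and AHA11 rose by 61.8 CPM. Added up as 1 locus, in the alternative chosen after seeing the data, they were higher in A. halleri (log2 0.74, edgeR adjusted p = 0.00017). The end of AHA4 overlaps by 58 bases that of GTR1, a glucosinolate transporter on the other strand that had 526 and 505 reads in A. halleri against 255 and 286 for A. thaliana. Of 5 endodermis markers 3 were lower in A. halleri (36.8% of all tested loci were), 1 higher (35.7%) and 1 not called. Their summed level was 172 to 213 CPM in A. halleri and 234 to 265 in A. thaliana. CASP1, a defining protein of the Casparian strip, was not called (91.1 against 107 CPM), and MYB36, which switches on the Casparian strip genes, was 1.56-fold lower. The part of the endodermis markers in the result was not tested.

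The pumps known from pollen, anthers and seeds were low in these roots, and AHA8 differed most. AHA8 (AT3G42640, chromosome 3, 14724103 to 14728327), a pollen pump, had 0 and 0 reads in A. halleri against 252 and 300 for A. thaliana. Its level in A. thaliana was 13.9 ± 0.534 CPM (SD, n = 2), at least 152-fold above what 3 reads over both A. halleri libraries would give (edgeR adjusted p = 5.254e-06). Counting error alone allows a level of up to 0.177 CPM in A. halleri replicate 1 and 0.19 in replicate 2. The nearest relative of AHA8 is AHA9, with 75.6% of aligned coding bases in common. AHA8 overlaps by 135 bases AT3G06425 on the other strand, a locus without counts here.

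AHA9 (AT1G80660, chromosome 1, 30315964 to 30320197), a pump of anthers, had 8 and 6 reads in A. halleri against 43 and 4 for A. thaliana and was not tested. The 2 A. thaliana libraries lay on either side of those of A. halleri. AHA9 overlaps by 39 bases RTL1 on the other strand, which had 49 and 26 reads in A. halleri against 18 and 27 for A. thaliana. AHA10 (AT1G17260, chromosome 1, 5904058 to 5908898), a pump of the seed coat that acts in the storage of tannins, had 33 and 22 reads in A. halleri against 26 and 48 for A. thaliana. It was not called (1.67 ± 0.389 against 1.82 ± 0.489 CPM, n = 2; log2 -0.14, SE 0.32, edgeR adjusted p = 0.718), and the species overlapped.

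Markers of the tissues these 3 pumps are known from were mostly at or near 0. Of 7 pollen markers the pectin methylesterases VGD1 and PPME1 had 0 reads in all libraries, and 2 were tested. Of these 1, the calcium pump ACA9, was called, 2.57-fold higher in A. halleri (35.7% of all tested loci were called higher). The pollen list summed to 30.9 to 39.0 CPM in A. halleri and 13.9 to 16.7 in A. thaliana, of which ACA9 was 30.5 and 11.9. AHA8 went the other way, with its reads in A. thaliana. The 5 seed coat markers summed to 0.634 to 1.18 CPM in A. halleri and 0.632 to 1.65 in A. thaliana, and the tannin transporter TT12 had 0 reads in all libraries. Green tissue markers, by contrast, were higher in A. halleri in 5 of 6 genes (35.7% of all tested loci were), with 1 not tested. They summed to 128 to 183 CPM in A. halleri against 27.1 to 34.0 for A. thaliana. Their part in the levels of the pumps was not tested.

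Ordered by length-scaled level, the pumps ran in A. thaliana from AHA2 over AHA1, AHA11, AHA7, AHA3, AHA8, AHA5 and AHA4 to AHA10 and AHA9. In A. halleri AHA2 and AHA1 led at 541 ± 18.0 and 534 ± 39.9, which did not differ beyond their spread. AHA11 followed at 39.9 ± 1.05, AHA7 at 24.4 ± 6.2, AHA3 at 15.2 ± 2.64 and AHA10 at 0.587 ± 0.137. AHA4, AHA5 and AHA9 lay within 0.13 to 0.169, where 1 or a few reads decide the order, and AHA8 was at 0. In A. thaliana AHA11 and AHA7 were at 21.0 ± 0.61 and 16.7 ± 2.19, and AHA5 and AHA4 at 3.61 ± 0.327 and 2.96 ± 0.242. AHA10 and AHA9, at 0.641 ± 0.172 and 0.399 ± 0.486, did not differ beyond their spread.

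The 14-3-3 proteins, which bind the phosphorylated end of the pump and keep it active, were called in both directions. Of 13 genes 11 were tested, of which 6 were higher in A. halleri (35.7% of all tested loci were), 4 were lower (36.8%) and 1 did not pass the test. The share called lower was near that of all loci, and the median log2 difference was 0.31 against -0.01 over all tested loci. GRF11 had 1766 and 1504 reads in A. halleri against 133 and 166 for A. thaliana and was 13.3-fold higher (99.8 ± 6.15 against 7.52 ± 0.0369 CPM, n = 2; edgeR adjusted p = 3.91e-07). The annotation also names GRF11 ROOT HAIR SPECIFIC 5, and 5 of the 6 root hair markers were higher in A. halleri. The part of root hairs in the level of GRF11 was not tested. GRF2 was 1.91-fold higher, GRF9 1.75-fold lower and GRF5 1.49-fold lower. These genes resemble each other, with GRF11 sharing 76.5% of aligned bases with GRF10 and GRF5 84% with GRF7. Summed over the list, the level was 3131 to 3352 CPM in A. halleri and 2821 to 2839 in A. thaliana.

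Phosphatases of PP2C clade D remove the activating phosphate. Of 9 genes 4 were lower in A. halleri (36.8% of all tested loci were), 1 was higher (35.7%) and 4 did not pass the test. The share called lower was near that of all loci, and the median log2 difference was -0.26. AT5G06750 was 2.03-fold lower, AT4G33920 1.56-fold lower and AT3G12620 1.20-fold lower. AT5G66080, named after its values were seen, had 1 and 0 reads in A. halleri against 106 and 84, a ratio of 156 with a 95% exact counting interval of 27.7 to 6209. The SAUR19 subfamily, small auxin-induced proteins that inhibit these phosphatases, had 0 reads in both A. halleri libraries and 1 read in each of A. thaliana over its 6 genes, and none was tested.

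Kinases, peptide ligands and other partners of the pump were tested for 16 of 17 genes, of which 6 were higher in A. halleri (35.7% of all tested loci were), 3 were lower (36.8%) and 7 did not pass the test. The share called higher was near that of all loci, and the median log2 difference was 0.07. The receptor kinases PSY1R and TMK1 phosphorylate the pump, PSY1R in response to the peptide PSY1 and TMK1 in response to auxin. Their genes were 1.96-fold and 1.86-fold higher. The gene of the peptide itself, PSY1, was 3.47-fold lower (2.73 ± 0.358 against 9.46 ± 1.88 CPM, n = 2, edgeR adjusted p = 0.000284). Of the relatives of TMK1, TMK4 was 1.49-fold lower, TMK3 was 1.59-fold higher and TMK2 was not tested. PSY1 and these relatives were named after their values were seen. CIPK11, a kinase that inhibits AHA2, was 1.81-fold higher, and RALF1, a peptide that lowers pump activity through the receptor FERONIA, 1.64-fold lower. FER itself, the gene of that receptor, was not called (353 against 338 CPM).

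The list of vacuolar proton pumps holds subunits of the V-type ATPase and pyrophosphate-driven pumps, and its genes were called in both directions. Which membrane of the cell each of them serves was not examined, so the counts are not those of the vacuole alone. Of 30 genes 28 were tested, and 16 were higher in A. halleri (35.7% of all tested loci were), 4 lower (36.8%) and 8 not called. The median log2 difference was 0.47, beside -0.01 over all tested loci, and no enrichment was tested. The proteolipid subunit genes VHA-c1 and VHA-c5 of the V-type ATPase were 3.53-fold and 2.64-fold higher, VHA-a2, a membrane subunit of the tonoplast, 3.01-fold and VHA-c''2 2.75-fold. The 4 lower genes, named after their values were seen, were VHA-e2 (2.34-fold), VHA-d1 (2.33-fold), VHA-c2 (1.91-fold) and VHA-G2 (1.26-fold). Each of the 4 resembles a gene that went the other way. VHA-d1 shares 92.6% of aligned bases with VHA-d2, which was 2.22-fold higher, and VHA-c2 shares 83.7% with VHA-c1. VHA-G2 shares 84.4% with VHA-G1 (1.94-fold higher) and VHA-e2 shares 82.3% with VHA-e1 (1.44-fold higher). VHA-c2 also shares 91.1% with VHA-c4, which was not called. The aligned stretch covered 78.6% of the shorter transcript for VHA-d1 with VHA-d2, but 45.8% for VHA-c2 with VHA-c1. It covered 40% for VHA-G2 with VHA-G1, 31.8% for VHA-e2 with VHA-e1 and 50.5% for VHA-c2 with VHA-c4. Whether reads of 1 gene were counted on its relative was not tested. The catalytic subunit VHA-A was 1.33-fold and AVP1, a pyrophosphate-driven pump, 1.44-fold higher, both also named after their values were seen. VHA-a2 resembles VHA-a3 in 86.9% of aligned bases and VHA-c1 resembles VHA-c5 in 78.95%, over 81.6% and 75.1% of the shorter transcript.

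**Figure D5:**
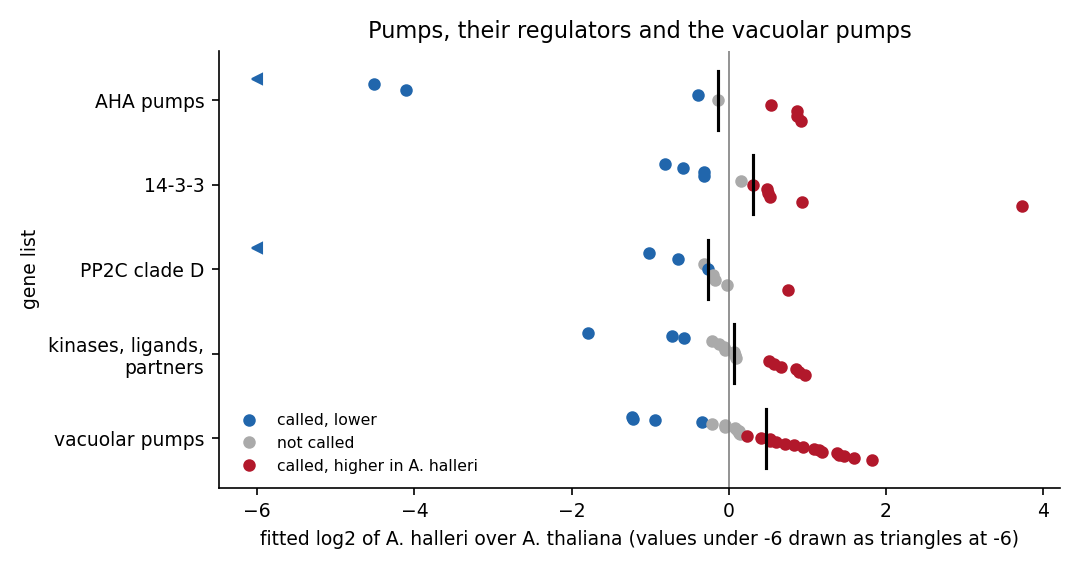
Fitted log2 of A. halleri over A. thaliana for each tested gene of the AHA family and of 4 lists of related genes, with called genes in red (higher) or blue (lower), genes not called in grey, and the median of each list as a black bar; triangles at -6 mark AHA8 and AT5G66080, whose fitted values lie further left. GRF11 stands apart among the 14-3-3 genes at 3.73, and the vacuolar pumps are centred at 0.47.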

How the data were processed

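Per the labels' protocols, TRIzol extracts of roots went into TruSeq libraries. The submitters' processing notes name TAIR10; no aligner, counter or strand setting is given in the sources used here. Per the file headers, the deposited tables hold counts of total and unique reads for 41671 transcript models, and RPKM values scaled by model length and library total. Models were added up per locus, using total reads. The 4 libraries held 16335761, 15497893, 18127031 and 22762183 reads.

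Species were compared with edgeR 4.0.16 in R 4.3.3 (quasi-likelihood test, TMM, default filter on low counts, species as the only term, 2 residual degrees of freedom), adjusted over all tested loci; the fit was tested on simulated data. CPM are given as mean ± SD. Log2 differences within a replicate number use a prior count of 2. Length-scaled levels use the longest listed model. A count of 0 was set at 3 reads for bounds, and intervals and bounds cover counting error only. Sequences and positions come from RefSeq's TAIR10.1; no protein sequence was used. Transcripts were compared with Biopython 1.88 and BLAST 2.17.0.

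Alternatives were DESeq2 1.42.0 and its size factors, unscaled totals, limma 3.58.1 on log2 of RPKM plus 1 or 0.1, other filters, unique reads, a 2-fold test, the replicate number as a block and leaving out each library. All 10 members are named; of each list, the rule names up to 4 called genes that differ most among those reaching 10 CPM in either species. The members and lists were chosen with earlier results of these data known.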

Additional observations from a re-analysis of the deposited data

How the results depend on the processing

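AHA1, AHA3, AHA5, AHA7, AHA8 and AHA11 kept their direction under every alternative that gave them a value, and AHA2 and AHA4 under all but the summing of pairs. The size of the low pumps' differences depended on the pseudocount: limma on RPKM plus 1 gave log2 -1.72, -1.96 and -2.46 for AHA4, AHA5 and AHA8, and RPKM plus 0.1 gave -3.47, -3.79 and -5.53, all still called. Against a 2-fold change 0 pumps were called higher and 3 lower, and 6391 loci were called in all (15161 against no change). With at least 10 reads in every library AHA4, AHA5 and AHA8 were not tested, which left 1 pump called lower. Summing the nearest pairs, which was added after seeing the data, left 2 pumps called lower and put AHA1 with AHA2 at log2 0.11 and AHA4 with AHA11 at log2 0.74. AHA3 with unique reads (log2 0.49, adjusted p = 0.261) and AHA7 without A. halleri replicate 1 (log2 0.27, adjusted p = 0.141) lost their calls, and AHA7 missed the threshold in limma on RPKM plus 0.1 (adjusted p = 0.0515). AHA10, never called, ranged from log2 -0.38 to 0.18 over the alternatives and was above 0 without A. halleri replicate 2 (0.09) or A. thaliana replicate 2 (0.18). AHA9, not tested, was called lower without A. thaliana replicate 2 (log2 -2.49, adjusted p = 0.00031) and not in the other 6 alternatives that gave it a value. The ratio of the summed level was 1.09 (SD 0.0524), 1.15 with deposited RPKM or unscaled totals, 1.53 with unique reads, and 1.05 to 1.13 with single libraries left out. Unique reads kept 100% of AHA1 in both species but only 17.4% of AHA2 in A. halleri and 16.05% in A. thaliana. The 1.53 therefore does not measure the same pool. The median of all loci was log2 0.07 with unscaled totals. Same-numbered libraries of the species did not deviate together over the genes as a whole (r = -0.0531 over 20899 genes). This 1 value cannot decide whether the numbers mark pairs or batches, and the labels do not say. The replicate block left 4 pumps called higher and 4 lower, with edgeR adjusted p of 0.0042 for AHA7 and 0.000317 for AHA3. No pair of pumps reached 90% identity over 80% of the shorter transcript, so summing by that rule was not run.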
